A study of Mus musculus with 16 samples.

Results

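The potassium channel genes were taken as all probes on the array whose gene symbol starts with Kcn, pore-forming subunits and auxiliary subunits alike, whatever their detection p-value. The rule found 119 probes for 80 genes among 25697 probes in all. The rule reads gene symbols and no level, but the family was chosen with earlier results of these data known. The study asked how 4b, an inhibitor of histone deacetylases, acts on gene expression in skeletal muscle of mice with and without the N17182Q transgene. The transgene encodes the N-terminal part of huntingtin carrying a long glutamine repeat, under a prion promoter that is best known for expression in neurons and is not specific to muscle. Total RNA of gastrocnemius muscle was measured on Illumina bead arrays, with 1 array for each of 16 B6C3F1/J mice. The groups were 3 transgenic (Tg) mice given 4b, 5 wild-type (WT) mice given 4b, 4 Tg mice given vehicle and 4 WT mice given vehicle. Each array label carries its own animal number. The sources used here give no dose, duration of treatment or age, and no probe was taken as a measure of the transgene.

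Potassium channels let potassium leave or enter a cell along its gradient and so set the resting potential and end each action potential. In skeletal muscle, inward rectifiers of the Kcnj family hold the resting potential of the surface membrane and the transverse tubules, and voltage-gated channels of the Kcna and Kcnc families help to repolarise the fibre. Auxiliary subunits such as Kcnab and Kcne do not form a pore, but change how the pore-forming subunits open, close or reach the membrane.

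To show the 4 genes with a called probe both with 4b and with vehicle and no overlap between Tg and WT arrays in either, promoter windows of Kcnab1, Kcne1l, Kcnj12 and Kcng4 are printed 5′ to 3′ on the strand of the gene. They run from 250 bases before to 50 bases after a transcript start, in RefSeq sequence of build GRCm38.p6. Capitals mark matches to the E-box CANNTG, a motif of myogenic basic helix-loop-helix factors, or to TATAAA. RefSeq lists 3 starts of Kcnab1, at chr3:64948962-64949261, chr3:65108764-65109063 and chr3:65187853-65188152, all on the plus strand. The windows of Kcne1l at chrX:142306149-142306448 and of Kcng4 at chr8:119635631-119635930 lie on the minus strand, and that of Kcnj12 at chr11:61065554-61065853 lies on the plus strand.
Kcnab1, start 1: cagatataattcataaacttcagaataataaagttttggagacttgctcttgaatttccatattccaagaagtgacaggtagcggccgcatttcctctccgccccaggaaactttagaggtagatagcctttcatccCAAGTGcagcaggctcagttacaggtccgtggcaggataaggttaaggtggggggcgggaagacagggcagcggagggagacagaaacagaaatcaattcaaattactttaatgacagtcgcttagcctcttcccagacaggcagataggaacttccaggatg
Kcnab1, start 2: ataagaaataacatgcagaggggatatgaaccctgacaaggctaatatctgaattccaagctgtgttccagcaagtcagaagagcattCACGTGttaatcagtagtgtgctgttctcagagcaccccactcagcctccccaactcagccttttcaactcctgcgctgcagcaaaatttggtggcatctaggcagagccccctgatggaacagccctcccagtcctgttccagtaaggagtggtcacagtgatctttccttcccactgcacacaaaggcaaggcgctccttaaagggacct
Kcnab1, start 3: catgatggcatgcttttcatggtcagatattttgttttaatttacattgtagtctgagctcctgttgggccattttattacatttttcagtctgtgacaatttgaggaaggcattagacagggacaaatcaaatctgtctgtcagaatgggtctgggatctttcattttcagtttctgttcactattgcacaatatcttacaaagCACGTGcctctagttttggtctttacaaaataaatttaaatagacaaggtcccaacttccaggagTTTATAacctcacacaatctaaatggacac
Kcne1l: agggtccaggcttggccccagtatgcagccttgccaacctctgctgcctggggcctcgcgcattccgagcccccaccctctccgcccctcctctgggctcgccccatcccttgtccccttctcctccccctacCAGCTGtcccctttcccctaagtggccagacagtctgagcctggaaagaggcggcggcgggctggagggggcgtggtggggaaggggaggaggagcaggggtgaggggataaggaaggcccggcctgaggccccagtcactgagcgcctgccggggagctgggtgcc
Kcnj12: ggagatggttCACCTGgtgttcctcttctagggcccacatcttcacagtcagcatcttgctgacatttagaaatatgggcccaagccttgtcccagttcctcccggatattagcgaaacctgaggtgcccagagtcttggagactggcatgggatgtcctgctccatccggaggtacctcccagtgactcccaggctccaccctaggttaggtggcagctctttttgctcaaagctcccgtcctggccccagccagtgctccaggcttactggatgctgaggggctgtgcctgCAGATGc
Kcng4: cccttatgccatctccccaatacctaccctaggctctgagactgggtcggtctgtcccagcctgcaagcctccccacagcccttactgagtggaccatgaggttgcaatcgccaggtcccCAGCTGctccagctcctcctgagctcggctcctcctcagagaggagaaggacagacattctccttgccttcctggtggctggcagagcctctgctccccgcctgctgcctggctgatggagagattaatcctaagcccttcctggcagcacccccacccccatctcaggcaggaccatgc
Each of the 6 printed windows holds an E-box, with 1 match in every window except that of Kcnj12, which holds 2. The last of the Kcnab1 windows also holds TATAAA, on the opposite strand and 20 bases after the transcript start. Both strands were searched, also for the MEF2 motif, here CTA and TAG with any 4 bases between them. CANNTG was in 72.3% of the 32851 promoter windows searched, which leave out 1 chromosome. TATAAA was in 13.6% of them and the MEF2 motif in 3.69%. Of the 16 windows of the 11 Kcn genes called for genotype, 14 held an E-box, 0 held the MEF2 motif and 1 held TATAAA. A match in letters is not a bound site.

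Most potassium channel probes were dim in this muscle. A probe counts as detected on an array where its deposited detection p-value is under 0.05. Of the 119 Kcn probes, 66 were detected on no array, 17 on 1 or 2 arrays and 36 on at least 3 arrays. The share detected on no array was 55.5% of Kcn probes, and it was 40.1% of all probes. Detection on all 16 arrays was reached by 13 Kcn probes, which is 10.9%, against 35.8% of all probes. These 13 probes report Kcna7, Kcnab1 with 2 probes, Kcnc1, Kcnc4 with 2 probes, Kcnj2, Kcnj8, Kcnj12, Kcnk6, Kcnma1, Kcnmb4 and Kcnn1. The 36 probes detected on at least 3 arrays, for 31 genes, were tested; a probe that is seen in 1 group alone can pass through that group.

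**Figure D1:**
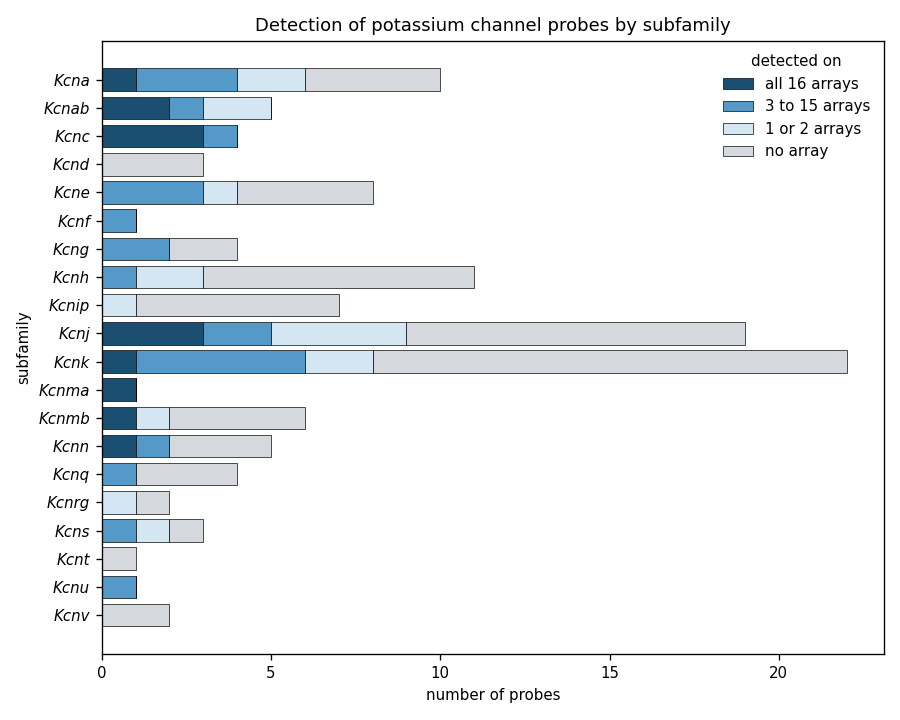
Number of Kcn probes (horizontal axis) in each subfamily (vertical axis), split by the number of arrays on which they were detected. Kcnd, Kcnip, Kcnrg, Kcnt and Kcnv hold no tested probe, while all 4 Kcnc probes were tested.

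The subfamilies differed in how much of them was seen. All 4 probes of Kcnc, a family of voltage-gated channels, were tested. In the Kcna family 4 of 8 genes were tested, namely Kcna2, Kcna3, Kcna5 and Kcna7. In the inward rectifiers 5 of 12 genes were tested, and in the tandem-pore-domain family Kcnk, whose members carry background potassium current, 5 of 13. All 3 genes of Kcnd, which form A-type channels, and all 4 genes of Kcnip, their calcium-binding partners, went untested. Kcnn3, a calcium-activated channel known to return in denervated muscle, was not detected on any array. Kcnj11, the pore subunit of the muscle channel that is closed by ATP, was not analysed here.

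The arrays gave detected shares of 42.7% to 50.3% of probes and correlated with each other at 0.899 to 0.984. The number of Kcn probes detected on an array was lowest at 26, median 28 and highest at 28 in Tg mice given 4b, and 24, 26 and 32 in WT mice given 4b. It was 24, 29 and 35 in Tg mice given vehicle, and 19, 24.5 and 29 in WT mice given vehicle. All 8 skeletal muscle fibre markers (Acta1, Ckm, Tnnt3, Tnni2, Myh4, Pvalb, Actn3, Mb) were detected on every array. In 6 arrays, spread over all 4 groups, the mean of 8 lymphocyte genes lay more than 0.5 log2 units above the mean of WT mice given vehicle, and up to 3.32 units above it. These 6 are replicates 1 and 2 of Tg mice given 4b, replicates 1 and 3 of WT mice given 4b, replicate 4 of Tg mice given vehicle and replicate 4 of WT mice given vehicle.

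Potassium channel probes were called for genotype and not for 4b. Each probe was tested with limma, and called at an adjusted p under 0.05 after Benjamini-Hochberg adjustment over all 13706 tested probes. In mice given 4b, 10 of 36 Kcn probes (27.8%) were called, 2 higher and 8 lower in Tg mice. This is close to the 27.4% called among all probes, where 15.6% were higher and 11.8% lower. In mice given vehicle, 7 of 36 Kcn probes (19.4%) were called, 1 higher and 6 lower in Tg mice, against 5.28% of all probes, 2.36% higher and 2.92% lower. Leaving out certain single arrays lowered this count of 7 to 3 or 4. They were replicates 1 to 3 of the WT mice and replicates 1 and 3 of the Tg mice given vehicle. Calls among all probes then fell from 724 to between 258 and 441. Leaving out replicate 2 of the Tg mice given 4b lowered the count of 10 to 6, and calls among all probes from 3760 to 2067. With genotype averaged over both treatments, 13 Kcn probes (36.1%) were called, 3 higher and 10 lower, against 32.2% of all probes, 17.9% higher and 14.3% lower. Kcnab1 and Kcnc1 each count with 2 probes among the 7 called with vehicle. With the brightest probe of each gene alone, limma called 5 of 31 Kcn genes with vehicle, 9 with 4b and 11 averaged. Of all 10295 such probes it called 546 with vehicle, 2911 with 4b and 3420 averaged. Without the 6 arrays with high lymphocyte genes, which leaves 1 Tg array given 4b, limma called 3 Kcn probes with 4b, those of Kcnab1 and Kcne1l, 8 with vehicle and 6 averaged; of all probes it then called 5 with 4b, 769 with vehicle (5.61%) and 1473 averaged (10.7%). The median log2 difference, Tg minus WT, of the 36 Kcn probes was -0.16 with 4b, -0.19 with vehicle and -0.15 averaged, where the medians over all tested probes were 0.02, 0.01 and 0.01. Of the 36 Kcn probes, 25 differed in the same direction with 4b and with vehicle (69.4%), against 73.1% of all probes, and 6 were called in both (16.7%), against 574 of all probes (4.19%). Both Kcnab1 probes are among these 6. The 2 comparisons share no array, but all arrays were normalised together.

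Muscle fibre markers moved with genotype too. The mean over the 8 fibre marker genes, relative to WT mice given vehicle, ran from -0.67 to -0.32 log2 units in Tg mice given 4b, against -0.06 to 0.05 in WT mice given 4b. It ran from -0.71 to -0.29 in Tg mice given vehicle, against -0.06 to 0.06 in WT mice given vehicle. With genotype averaged, 6 of 11 fibre marker probes were called lower, for Actn3, Mb, Myh4 and Tnnt3, against 14.3% of all probes. In whole muscle, fewer cells of a type and less RNA per cell cannot be told apart. Of 8 listed macrophage gene symbols, among which Emr1 and Adgre1 name the same gene, 5 were tested, and 2 were detected on every array. Their mean ran from -0.47 to 0.24 in Tg mice given 4b, against 0.42 to 1.23 in WT mice given 4b, without overlap, and 2 of their 6 probes, both of Adgre1, were called lower. With vehicle it ran from -0.50 to 0.44 in Tg mice, against -1.55 to 0.84 in WT mice. The mean of 5 adipocyte genes overlapped between genotypes in both treatments, and was highest at 2.21 and 1.41 on replicates 1 and 3 of WT mice given 4b and at 2.41 on replicate 4 of WT mice given vehicle, which are among the 6 arrays with high lymphocyte genes. The means of Schwann cell, smooth muscle, endothelial, neuronal and lymphocyte markers overlapped between genotypes in both treatments. The neuronal value came from 1 probe of 1 of 4 listed genes, and the Schwann cell mean from 3 of 8 listed genes. The part of these cell types in the differences given for Kcn genes was not tested.

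The auxiliary subunit Kcnab1 fell most. Kcnab1 encodes a cytoplasmic beta subunit that gives fast inactivation to voltage-gated channels of the Kcna family. Its probe ILMN_2915671 read 6.53, 6.80 and 6.07 log2 units in Tg mice given 4b, against 8.07, 9.77, 9.13, 9.70 and 10.30 in WT mice given 4b. With vehicle it read 6.38, 6.78, 6.49 and 5.69 in Tg mice, against 10.34, 9.78, 9.90 and 9.36 in WT mice. Every Tg array lay below every WT array. The log2 difference, Tg minus WT, was -2.93 ± 0.40 (SE) with 4b, a level 7.61-fold lower (limma adjusted p = 0.000421), and -3.51 ± 0.39 with vehicle, 11.4-fold lower (adjusted p = 0.000251). Without the 6 arrays with high lymphocyte genes they were -3.85 and -3.46 and stayed called. The lowest WT array, replicate 1 of the mice given 4b, is one of the 6 arrays with high lymphocyte genes.

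A second Kcnab1 probe, ILMN_1216469, gave the same picture. It read 5.98, 5.68 and 6.24 in Tg mice given 4b, against 7.32, 9.47, 8.75, 9.47 and 10.03 in WT mice given 4b. It read 5.91, 6.44, 6.25 and 5.69 in Tg mice given vehicle, against 9.92, 9.34, 9.74 and 9.12 in WT mice given vehicle. The differences were -3.04 ± 0.44 with 4b (limma adjusted p = 0.000495) and -3.45 ± 0.43 with vehicle (adjusted p = 0.000765), and the groups again did not overlap. The 2 probes correlated at 0.986 over the 16 arrays. The other Kcnab1 probe on the array was detected on 1 array and was not tested. Kcnab2, another beta subunit, was not called: its differences were -1.21 ± 0.63 with 4b (adjusted p = 0.17) and -0.02 ± 0.61 with vehicle (adjusted p = 0.989). Kcnab3 was not tested.

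Kcne1l rose in Tg muscle. Kcne1l belongs to the Kcne family of small single-pass membrane proteins that modulate voltage-gated potassium channels. It read 6.58, 6.91 and 8.38 in Tg mice given 4b, against 5.08, 4.94, 4.94, 5.02 and 4.62 in WT mice given 4b. It read 8.34, 9.74, 8.68 and 7.91 in Tg mice given vehicle, against 4.75, 4.84, 4.95 and 5.77 in WT mice given vehicle. Every Tg array was above background and above every WT array, and 1 of 9 WT arrays was above background. With 4b the level was at least 3.58-fold higher in Tg mice, set against the lowest signal of detected probes because no WT array was above background (log2 difference 2.37 ± 0.41, limma adjusted p = 0.00107). With vehicle, where 1 of 4 WT arrays was above background, the measured difference was 3.59 ± 0.39 (adjusted p = 0.000251), and the level was at least 8.15-fold higher with the other 3 WT arrays set to the lowest signal of detected probes. Without the 6 arrays with high lymphocyte genes the differences were 3.52 and 4.07 and stayed called. Among the other Kcne genes, Kcne1 and Kcne4 were not called, with differences between -0.32 and 0.38 in the 2 treatments, and Kcne2 and Kcne3 were not tested.

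**Figure D2:**
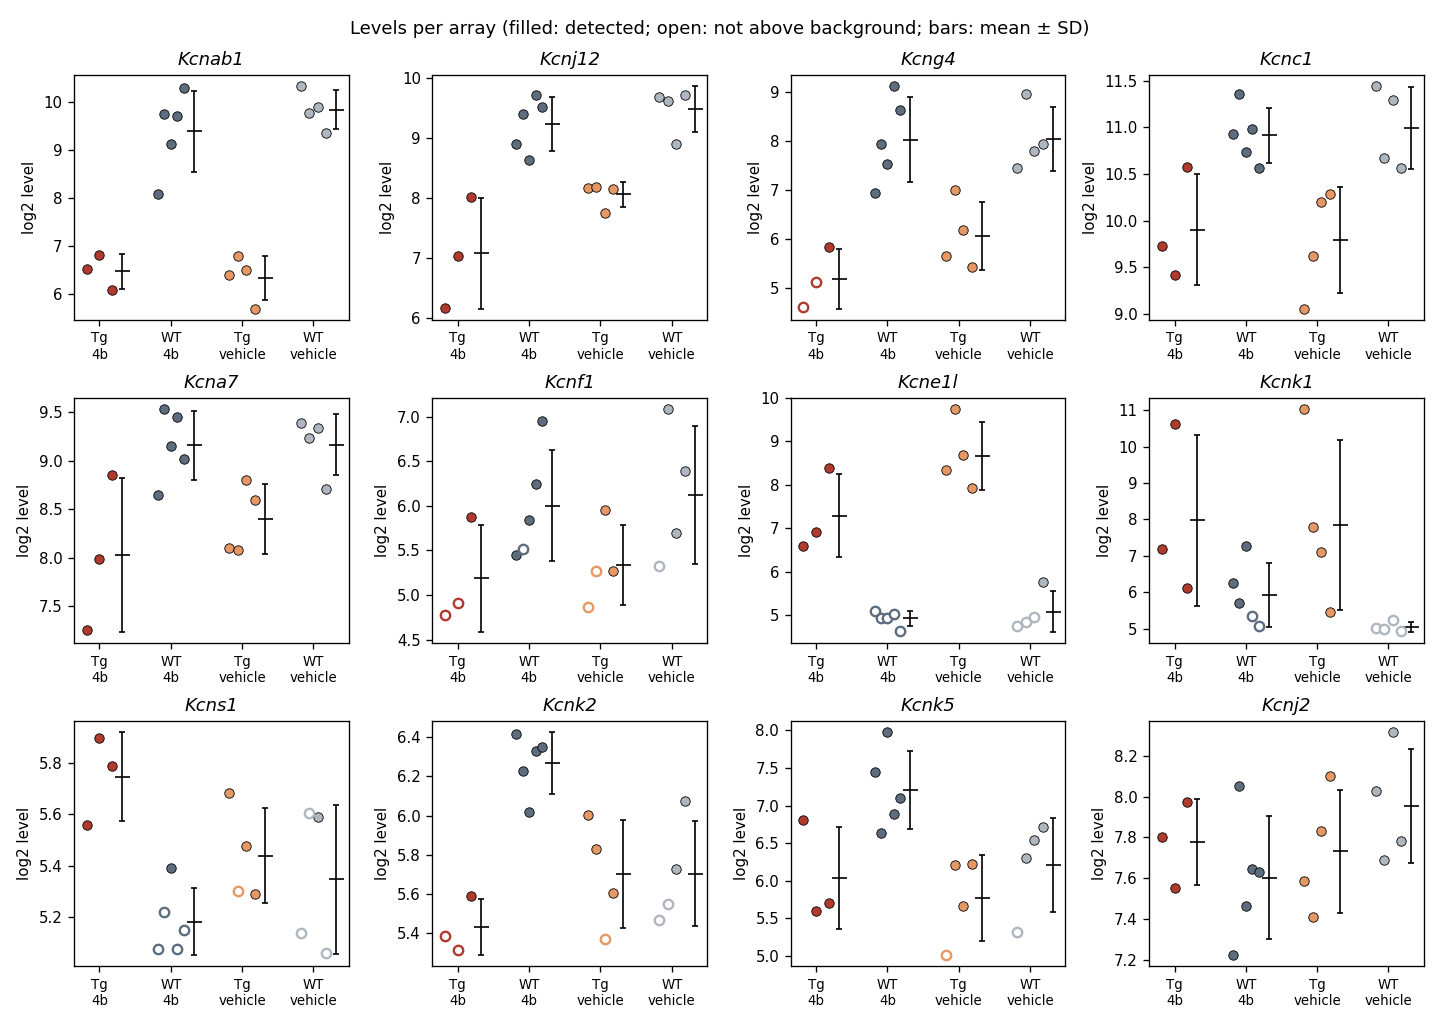
Normalised log2 level (vertical axis) of 12 Kcn genes on each array, in the 4 genotype and treatment groups (horizontal axis), each gene by its brightest tested probe. Filled points were above background, open points were not, and bars give the mean and SD. Kcnab1 and Kcnj12 lie lower on every Tg array than on every WT array, Kcne1l lies higher, and the groups overlap for Kcnj2. Each panel has its own scale.

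The voltage-gated pore subunits split. Kcnc1 forms fast channels that allow high firing rates in neurons. Its bright probe ILMN_2717814 read 9.72, 9.42 and 10.57 in Tg mice given 4b, against 10.93, 11.36, 10.74, 10.98 and 10.57 in WT mice given 4b. It read 9.06, 9.62, 10.20 and 10.29 in Tg mice given vehicle, against 11.44, 10.67, 11.29 and 10.57 in WT mice given vehicle. The groups did not overlap with vehicle. With 4b they overlapped narrowly, with the highest Tg array at 10.5718 and the lowest WT array at 10.5673. The differences were -1.01 ± 0.32 with 4b (limma adjusted p = 0.028) and -1.20 ± 0.31 with vehicle (adjusted p = 0.0354). Leaving out replicate 2 of the WT mice or replicate 1 or 2 of the Tg mice ended the call with 4b, and so did any of replicates 1 to 3 of the WT mice or 1 and 2 of the Tg mice with vehicle. The difference without the 6 arrays with high lymphocyte genes was -0.40 with 4b (adjusted p = 0.716), -1.51 with vehicle, which stayed called (adjusted p = 0.0323), and -0.95 averaged, a call lost (adjusted p = 0.0581). The dim probe ILMN_1239595 was above background on 0 of 7 Tg arrays and on a minority of WT arrays, through which alone it passed the filter. It was called with vehicle, where it was at least 1.30-fold lower (-1.06 ± 0.28, limma adjusted p = 0.0393), and averaged (-0.78, adjusted p = 0.00783). It was not called with 4b (-0.50, adjusted p = 0.211). Its call with vehicle was lost with 10 of 16 arrays left out in turn.

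Kcnc4, the other member of this subfamily, forms channels with rapid inactivation and is known from fast muscle fibres. Its bright probe ILMN_2771095 read 12.92, 12.54 and 12.59 in Tg mice given 4b, against 12.34, 12.54, 12.33, 12.05 and 12.23 in WT mice given 4b. It read 11.62, 12.08, 12.52 and 11.91 in Tg mice given vehicle, against 12.94, 12.12, 12.69 and 11.71 in WT mice given vehicle. Groups of the same treatment overlapped with vehicle. With 4b they lay narrowly apart, with the lowest Tg array at 12.5375 and the highest WT array at 12.5357. The differences were 0.38 ± 0.25 with 4b (limma adjusted p = 0.283) and -0.33 ± 0.25 with vehicle (adjusted p = 0.491). The second Kcnc4 probe followed it at a correlation of 0.954 over 16 arrays and was not called either.

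Kcna7, a delayed rectifier subunit known from skeletal muscle and heart, was called lower in Tg than in WT mice given 4b and with genotype averaged. It read 7.26, 7.98 and 8.85 in Tg mice given 4b, against 8.64, 9.53, 9.15, 9.45 and 9.02 in WT mice given 4b. It read 8.10, 8.08, 8.80 and 8.59 in Tg mice given vehicle, against 9.39, 9.23, 9.34 and 8.70 in WT mice given vehicle. In each treatment 1 Tg array overlapped with the WT arrays. The difference was -1.13 ± 0.31 with 4b (limma adjusted p = 0.0141), -0.77 ± 0.30 with vehicle (adjusted p = 0.15) and -0.95 ± 0.21 averaged (adjusted p = 0.00372). The call with 4b was lost without replicate 1 or 2 of the Tg mice. Without the 6 arrays with high lymphocyte genes, Kcna7 was called with vehicle (-0.99, adjusted p = 0.0387) and not with 4b (-0.49, adjusted p = 0.495). Kcna2, Kcna3 and Kcna5 lay near background and were not called, with differences of 0.07 to 0.35. Kcna3, known from T cells, ranged from 5.12 to 5.76 on the 6 arrays with high lymphocyte genes and from 5.15 to 5.94 on the other 10.

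Kcng4, Kcnf1 and Kcns1 encode silent subunits, which form no channel alone and modify channels of the Kcnb family when they join them. Kcng4 fell. Its probe ILMN_2895511 read 4.61, 5.12 and 5.82 in Tg mice given 4b, against 6.93, 7.92, 7.53, 9.11 and 8.62 in WT mice given 4b. It read 5.66, 6.99, 6.18 and 5.43 in Tg mice given vehicle, against 7.45, 8.95, 7.79 and 7.93 in WT mice given vehicle. The groups did not overlap in either treatment, and 1 of 3 Tg arrays given 4b was above background. With 4b the measured difference was -2.84 ± 0.48 (limma adjusted p = 0.00105), at least 5.48-fold lower with the other 2 Tg arrays set to the lowest signal of detected probes. The level was 3.91-fold lower in Tg mice with vehicle (-1.97 ± 0.47, adjusted p = 0.0242). The call with vehicle was lost without replicate 2 or 3 of the WT mice or replicate 1, 3 or 4 of the Tg mice, and both calls were lost without the 6 arrays with high lymphocyte genes, where the differences were -2.73 with 4b (adjusted p = 0.148) and -1.79 with vehicle (adjusted p = 0.0523). The other Kcng4 probe was above background on no Tg array and on a minority of WT arrays. It was not called, and correlated with the first at 0.603 over 16 arrays.

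The other silent subunits differed less, and both were dim. Kcnf1 read 4.77, 4.91 and 5.87 in Tg mice given 4b, against 5.45, 5.52, 5.84, 6.24 and 6.95 in WT mice given 4b. It read 4.86, 5.27, 5.95 and 5.27 in Tg mice given vehicle, against 5.32, 7.08, 5.70 and 6.39 in WT mice given vehicle. On most Tg arrays Kcnf1 was not above background, and its difference is given as measured. Its groups overlapped in both treatments, and it was called only with genotype averaged, at -0.80 ± 0.29 (limma adjusted p = 0.0451), a call lost under 18 of 30 alternative settings. Kcns1 read 5.56, 5.90 and 5.79 in Tg mice given 4b, against 5.07, 5.22, 5.39, 5.07 and 5.15 in WT mice given 4b. It read 5.68, 5.30, 5.48 and 5.29 in Tg mice given vehicle, against 5.13, 5.61, 5.59 and 5.06 in WT mice given vehicle. The Kcns1 groups did not overlap with 4b and overlapped with vehicle. On most WT arrays given 4b Kcns1 was not above background, and its difference is given as measured. The differences were 0.57 ± 0.16 with 4b (adjusted p = 0.0185) and 0.09 with vehicle (adjusted p = 0.799). The call with 4b was lost without replicate 2 of the Tg mice.

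Of the inward rectifiers, Kcnj12 fell and Kcnj2 was not called. Both encode strong inward rectifiers that carry the resting current of muscle fibres. Kcnj12 read 6.17, 7.04 and 8.02 in Tg mice given 4b, against 8.90, 9.40, 8.63, 9.71 and 9.51 in WT mice given 4b. It read 8.17, 8.18, 7.75 and 8.16 in Tg mice given vehicle, against 9.69, 9.62, 8.91 and 9.72 in WT mice given vehicle. Every Tg array lay below every WT array. The level was 4.45-fold lower in Tg mice with 4b (-2.15 ± 0.34, limma adjusted p = 0.000764) and 2.68-fold lower with vehicle (-1.42 ± 0.33, adjusted p = 0.0219). The call with vehicle was lost without replicate 1 or 2 of the WT mice or replicate 1 or 3 of the Tg mice, and the call with 4b without the 6 arrays with high lymphocyte genes, where the difference was -1.52 (adjusted p = 0.14).

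Kcnj2 read 7.80, 7.55 and 7.97 in Tg mice given 4b, against 7.22, 8.05, 7.47, 7.64 and 7.63 in WT mice given 4b. It read 7.59, 7.41, 7.83 and 8.10 in Tg mice given vehicle, against 8.03, 7.69, 8.32 and 7.78 in WT mice given vehicle. The groups overlapped in both treatments, and the differences were 0.17 ± 0.21 with 4b (limma adjusted p = 0.581) and -0.22 ± 0.20 with vehicle (adjusted p = 0.592). Kcnj8, a pore subunit of channels closed by ATP that is known from vascular smooth muscle, differed by -0.22 ± 0.16 with 4b and 0.06 ± 0.16 with vehicle and was not called. The inward rectifier Kcnj4 differed by 0.48 ± 0.19 with 4b (adjusted p = 0.075) and -0.31 ± 0.19 with vehicle (adjusted p = 0.38), and Kcnj15, near background, was not called.

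Tandem-pore-domain channels gave calls in both directions. Kcnk1, a weakly inward rectifying member of the family, read 7.18, 10.62 and 6.13 in Tg mice given 4b, against 6.25, 5.69, 7.28, 5.35 and 5.08 in WT mice given 4b. It read 11.03, 7.80, 7.10 and 5.46 in Tg mice given vehicle, against 5.01, 4.98, 5.24 and 4.94 in WT mice given vehicle. All 7 Tg arrays were above background. Among WT mice, 0 of 4 arrays with vehicle were above background, and most arrays with 4b were. The Tg arrays spread over more than 5 log2 units, and on all arrays the difference was not called within a treatment. It was 2.05 ± 1.03 with 4b (limma adjusted p = 0.155) and 2.80 ± 1.002 with vehicle (adjusted p = 0.117). With the WT arrays set to the lowest signal of detected probes, the mean with vehicle was 4.99-fold higher in Tg mice. This fold is set by group means and is no lower limit, since the difference was not called. Without replicate 1 of the Tg mice given vehicle the fold was 2.39, and the difference was 1.74 (adjusted p = 0.335). With genotype averaged it was 2.42 ± 0.72 (adjusted p = 0.0179), a call lost without replicate 2 of the Tg mice given 4b. Without the 6 arrays with high lymphocyte genes it was 2.16 averaged (adjusted p = 0.0721) and 0.76 with 4b (adjusted p = 0.786), and it was called with vehicle, at 3.56 (adjusted p = 0.0363).

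Kcnk2, a channel opened by membrane stretch and lipids, was lower in Tg than in WT mice given 4b. In WT mice Kcnk2 was itself higher with 4b than with vehicle, by 0.57 ± 0.16 log2 units, which was not called. It read 5.39, 5.31 and 5.59 in Tg mice given 4b, against 6.42, 6.23, 6.02, 6.33 and 6.35 in WT mice given 4b. It read 6.003, 5.83, 5.37 and 5.61 in Tg mice given vehicle, against 5.47, 5.55, 5.73 and 6.07 in WT mice given vehicle. The groups did not overlap with 4b and overlapped with vehicle. On most Tg arrays given 4b Kcnk2 was not above background, and its difference is given as measured. A second Kcnk2 probe was above background on no array and was not tested. The difference was -0.84 ± 0.17 with 4b (limma adjusted p = 0.00311) and 0.00 ± 0.17 with vehicle, and the difference between these was not called (-0.84 ± 0.24, adjusted p = 0.429). The difference with 4b was -0.71 and was not called without the 6 arrays with high lymphocyte genes (adjusted p = 0.257).

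Kcnk5, an acid-sensitive background channel, read 6.81, 5.59 and 5.70 in Tg mice given 4b, against 7.45, 6.63, 7.97, 6.89 and 7.11 in WT mice given 4b. It read 5.01, 6.21, 5.66 and 6.22 in Tg mice given vehicle, against 5.31, 6.30, 6.54 and 6.71 in WT mice given vehicle. The groups overlapped in both treatments. The difference was -1.17 ± 0.39 with 4b (limma adjusted p = 0.0372) and -0.44 with vehicle (adjusted p = 0.567). The call with 4b was lost without replicate 1, 3 or 5 of the WT mice or replicate 2 or 3 of the Tg mice. The other Kcnk5 probes were detected on too few arrays to be tested. Kcnk6 with 2 probes and Kcnk13 were tested and not called.

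The calcium-activated channels and the remaining subfamilies gave no call. Kcnma1, the large-conductance channel, read 6.18, 7.77 and 7.53 in Tg mice given 4b, against 6.97, 7.25, 7.24, 7.59 and 6.79 in WT mice given 4b. It read 7.64, 7.86, 8.05 and 7.68 in Tg mice given vehicle, against 7.59, 7.67, 7.38 and 7.95 in WT mice given vehicle. The groups overlapped, with differences of -0.01 ± 0.29 and 0.16 ± 0.28. Its beta subunit Kcnmb4 differed by -0.19 ± 0.19 with 4b and -0.16 ± 0.18 with vehicle. Kcnn1, a small-conductance channel, differed by 0.67 ± 0.31 with 4b (limma adjusted p = 0.121) and -0.01 ± 0.30 with vehicle. Kcnn4, known from lymphocytes and red cells, ranged from 4.97 to 6.03 on the 6 arrays with high lymphocyte genes and from 4.81 to 5.24 on the other 10. Kcnh1, Kcnq3 and Kcnu1 were tested and not called.

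**Figure D3:**
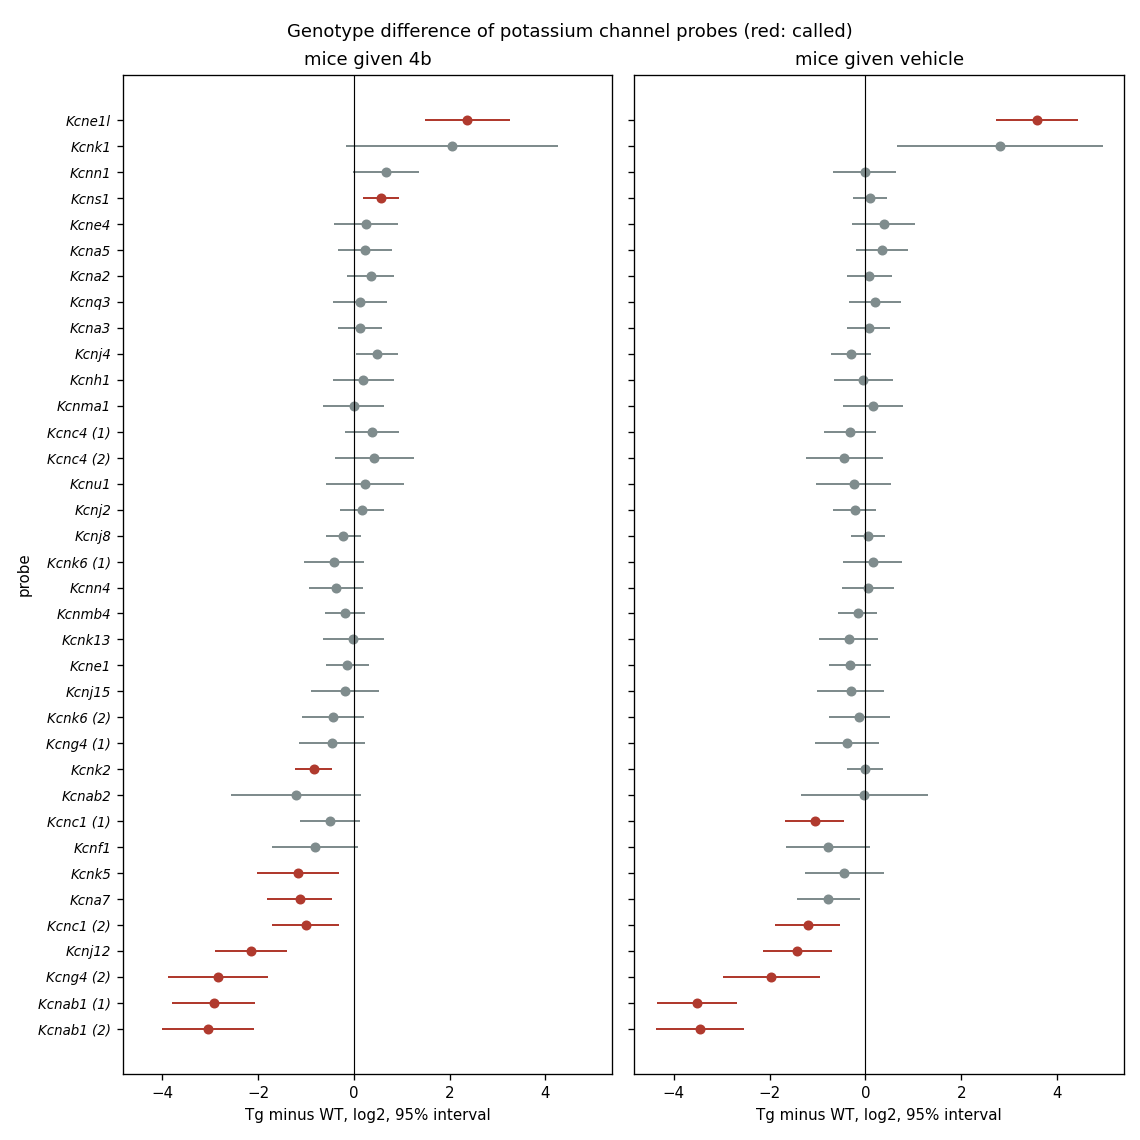
Log2 difference, Tg minus WT (horizontal axis), with its 95% interval, for the 36 tested Kcn probes (vertical axis), in mice given 4b (left) and in mice given vehicle (right). Red marks the 10 probes called with 4b and the 7 called with vehicle; Kcnab1 and Kcne1l lie at the ends of both panels.

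Whether the arrays of Tg and WT mice overlapped was counted as well. In mice given 4b, 5 of the 36 Kcn probes lay higher on every Tg array than on every WT array and 6 lay lower, against 17.6% and 13% of all probes. In mice given vehicle, 2 lay higher and 6 lower, against 5.98% and 6.41% of all probes. The 6 include both probes of Kcnab1 and both of Kcnc1. Between treatments, 3 Kcn probes lay higher and 1 lower on every array of Tg mice given 4b than on every array of Tg mice given vehicle, against 4.8% and 3.53% of all probes, 8.33% in all. In WT mice given 4b against WT mice given vehicle, 0 of 36 Kcn probes were without overlap, against 0.781% of all probes. Over both treatments, 1 probe lay higher on all 7 Tg arrays than on all 9 WT arrays, that of Kcne1l, against 2.76% of all probes. Over both treatments 3 lay lower, those of Kcnab1 and Kcnj12, against 2.72%.

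Treatment with 4b gave no called Kcn probe in either genotype. In Tg mice, 0 of 36 Kcn probes and 0% of all probes were called, while 7 Kcn probes and 1959 of all 13706 probes had an unadjusted p under 0.05. In WT mice, 0 of 36 Kcn probes and 0% of all probes were called, while 2 Kcn probes and 364 of all probes had an unadjusted p under 0.05. The genotype by treatment difference likewise gave 0 calls among Kcn probes and 0% among all, with 3 Kcn probes and 1344 of all probes at an unadjusted p under 0.05. Weighting arrays by their quality changed the count in Tg mice, where limma then called 4 of 36 Kcn probes and 2277 of all probes. The median Kcn difference, 4b minus vehicle, was 0.06 in Tg mice and -0.07 in WT mice, where all probes had medians of -0.01 and -0.03.

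The smallest p-values for 4b in Tg mice belonged to Kcnj4 and Kcnc4, which were higher, and to Kcne1l and Kcnj8, which were lower. Kcnj4 read 5.98, 6.05 and 6.10 in Tg mice given 4b, against 5.82, 5.05, 5.71 and 5.28 in Tg mice given vehicle, a difference of 0.58 ± 0.20 (limma adjusted p = 0.227). Kcne1l differed by -1.38 ± 0.42 (adjusted p = 0.188), and its arrays overlapped. Kcnc4 differed by 0.65 ± 0.27 (adjusted p = 0.285) and Kcnj8 by -0.47 ± 0.17 (adjusted p = 0.246). Kcnj8 read 7.51, 7.13 and 7.78 in Tg mice given 4b, against 7.99, 8.04, 7.88 and 7.86 in Tg mice given vehicle, without overlap.

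In WT mice the smallest p-values for 4b belonged to Kcnk2 and Kcnk5, which were higher, and to Kcnj2 and Kcnma1, which were lower. Kcnk2 read 6.42, 6.23, 6.02, 6.33 and 6.35 in WT mice given 4b, against 5.47, 5.55, 5.73 and 6.07 in WT mice given vehicle. The differences were 0.57 ± 0.16 for Kcnk2, 0.99 ± 0.36 for Kcnk5, -0.35 ± 0.19 for Kcnj2 and -0.48 ± 0.27 for Kcnma1, each with a limma adjusted p of 0.9998. For the genotype by treatment difference, the smallest p-values belonged to Kcnj4 (0.79 ± 0.27, adjusted p = 0.466) and Kcns1 (0.48 ± 0.23, adjusted p = 0.518) upward, and to Kcnk2 and Kcne1l (-1.22 ± 0.56, adjusted p = 0.505) downward.

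**Figure D4:**
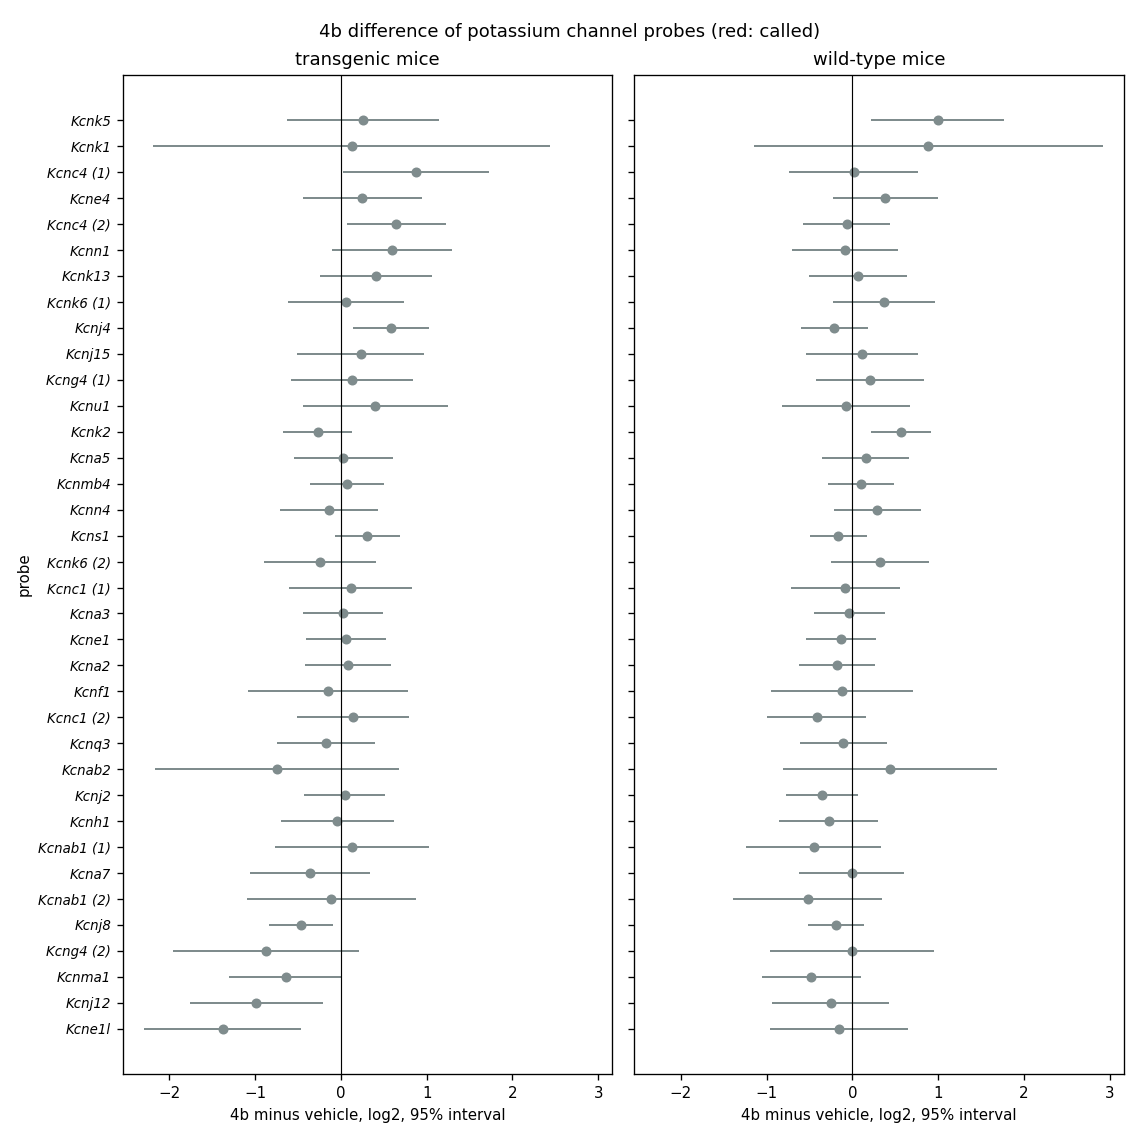
Log2 difference, 4b minus vehicle (horizontal axis), with its 95% interval, for the 36 tested Kcn probes (vertical axis), in Tg mice (left) and WT mice (right). No probe is marked as called in either panel.

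Other genes of membrane excitability, namely sodium, calcium and chloride channels, sodium pump subunits, endplate receptors and ankyrin, were read beside the potassium channels. Of 32 listed genes, 24 were on the array and 21 were tested, with 33 probes. In mice given 4b, 5 of the 33 probes were called higher in Tg mice, those of Chrna1 and Ank3, and 5 lower, those of Atp1b1, Atp1b2, Cacnb1, Clcn1 and Scn4b. This is 30.3% of the list, against 27.4% of all probes. In mice given vehicle, the 2 Chrna1 probes were called higher and none lower, 6.06% of the list against 5.28% of all probes. With genotype averaged, 6 were called higher and 7 lower, 39.4% of the list against 32.2% of all probes. With 4b alone or with the genotype by treatment difference, 0 probes of the list were called by limma, where 8 in Tg mice, 3 in WT mice and 3 for that difference had an unadjusted p under 0.05.

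Chrna1, the alpha subunit of the acetylcholine receptor of the endplate, was higher in Tg mice by 1.75 ± 0.35 log2 units with 4b (limma adjusted p = 0.00259) and by 2.13 ± 0.34 with vehicle (adjusted p = 0.00389). Ank3, which anchors ion channels in the membrane, was higher with 4b in 3 of its 4 probes, by 1.38 to 1.74 log2 units. Averaged over treatments, Clcn1, the chloride channel that stabilises the resting potential of muscle, was lower by one probe (-1.15 ± 0.25, adjusted p = 0.00258), and its other, dimmer probe was not called (-0.23 ± 0.13). The sodium pump subunit Atp1b2 (-1.55 ± 0.29, adjusted p = 0.00117), the sodium channel subunit Scn4b (-0.69 ± 0.17, adjusted p = 0.00694), the calcium channel subunit Cacnb1 (-0.90 ± 0.23, adjusted p = 0.00808) and the endplate receptor subunit Chrne (-0.81 ± 0.23, adjusted p = 0.0141) were lower as well. Scn3b, a sodium channel subunit, was above background on 0 of 9 WT arrays and passed the filter through Tg arrays alone. It was called higher, at least 1.25-fold (measured difference 0.73 ± 0.22, limma adjusted p = 0.0181). These genes were called beside the same fall of fibre markers, whose part was not tested.

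**Figure D5:**
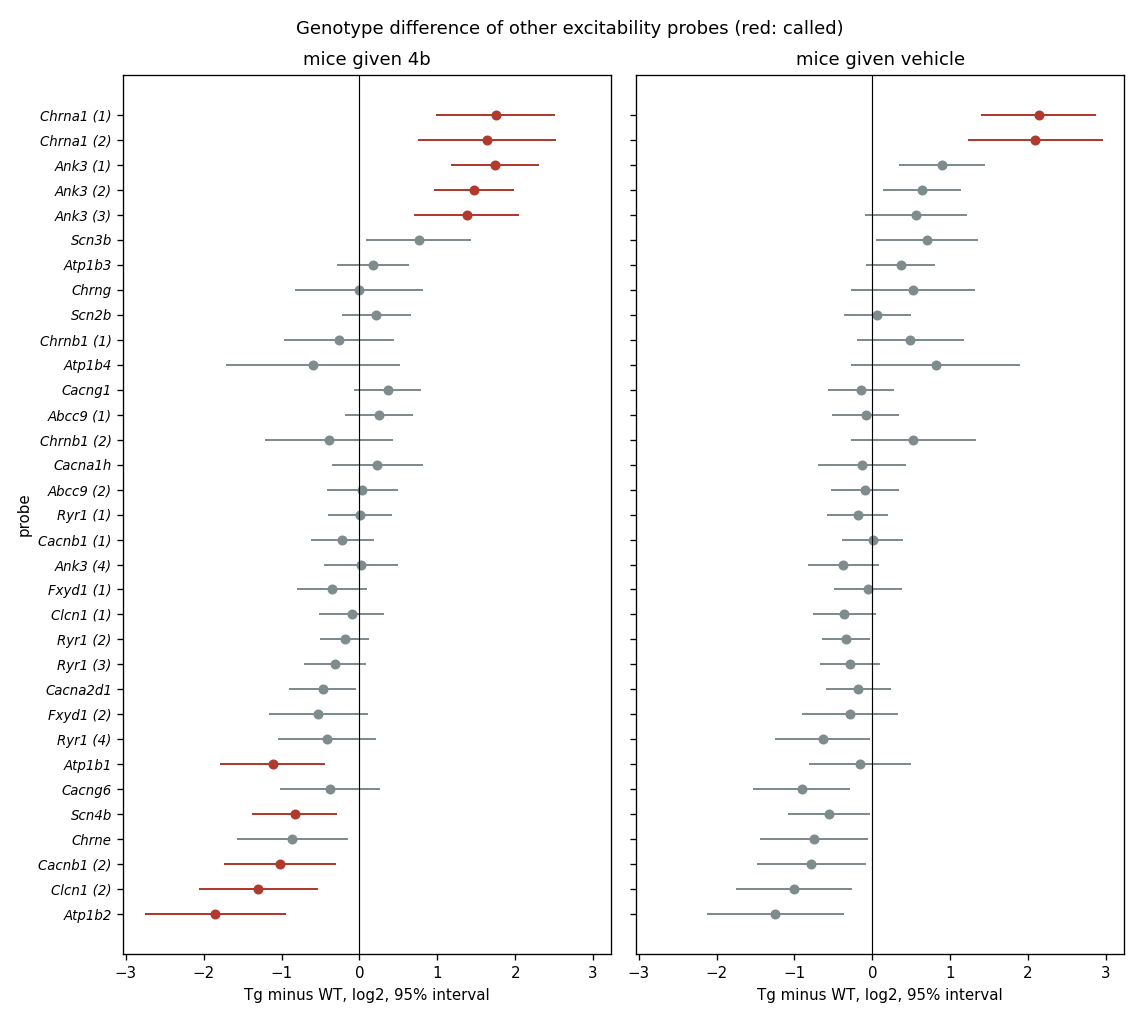
Log2 difference, Tg minus WT (horizontal axis), with its 95% interval, for the 33 tested probes of other excitability genes (vertical axis), in mice given 4b (left) and in mice given vehicle (right). Red marks called probes, 10 with 4b and the 2 Chrna1 probes with vehicle.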

How the data were processed

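Total RNA of gastrocnemius muscle was labelled with biotin and hybridised to Illumina bead arrays, 1 for each of 16 animals. The deposited table holds linear intensity values for every probe, not normalised per the file headers. The deposited detection p-value compares each probe with background; the sources used here do not say how. A further deposited table holds the authors' log2 values, which were used as an alternative; their sorted columns differed by at most 0.000579, as after quantile normalisation; the sources used here name no method. Symbols came from the platform annotation: 23978 probes had 1 symbol, 0 had several and 1719 had none. All 119 Kcn symbols matched RefSeq by gene identifier with 0 changes. Columns assigned to no sample numbered 0.

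Intensities went through normexp background correction from detection p-values (offset 16; limma 3.58.1, R 4.3.3), followed by quantile normalisation and log2. The offset compresses differences of dim probes, and quantile normalisation cannot show a change of most genes in one direction. Probes with detection p under 0.05 on at least 3 arrays (13706) were fitted each as its own row, with 4 group means on all 16 arrays (12 residual and 3.35 prior degrees of freedom). The 6 contrasts were tested two-sided with Benjamini-Hochberg adjustment over all probes, and called at 0.05. Probes of different genes are not compared in level, since a level depends on the probe. Precision is set by the number of animals. Some changes are given as "at least", where most arrays of the dimmer group were not above background. On each such array the probe is taken at the lowest signal of any detected probe, or at its own signal if that is higher. The brighter group's mean is set against the mean of these. Other such changes, among them Kcns1 and Kcnk2 with 4b and Kcnf1 averaged, are given as measured, without a bound. The fit was tested on simulated data.

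Named with values for each array are probes called in any contrast and, where tested, Kcnab1, Kcne1l, Kcnj2, Kcnj11, Kcnj12, Kcna7, Kcnc4, Kcnma1, Kcnn3 and Kcnk2. Where no Kcn probe was called, the 2 with the smallest p in each direction are named. The members, the excitability list and the marker lists were chosen with earlier results of these data known. The sources used here give no slide or scan. Alternatives changed background correction, scaling, filter, covariates, array weights and the arrays included. Those with Xist level or lymphocyte score as a covariate, or without the 6 arrays of high lymphocyte score, were chosen after seeing the data.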

Additional observations from a re-analysis of the deposited data

Results flagged for a closer look

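Of 60 tests for a single array far from the other arrays of its group, run on the named Kcn probes and on the number of Kcn probes detected, in groups of at least 4, 2 stood out; chance gives about 1 in 20. Both concern Kcnj12. Replicate 3 of the Tg mice given vehicle read 7.75 log2 units, below the other 3 arrays of its group, which lay from 8.16 to 8.18. Replicate 3 of the WT mice given vehicle read 8.91, below the other 3 arrays of its group, which lay from 9.62 to 9.72.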

How the results depend on the processing

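Across 31 alternatives, 16 of which leave out 1 array, no named probe that was called turned its direction. Among these alternatives, the authors' values and the fit without background correction gave the same counts of calls in every comparison. They are not separate checks. The call was kept for both Kcnab1 probes and for Kcne1l in all 3 genotype comparisons, with Kcne1l between 1.995 and 4.07 for genotype with vehicle and between 1.10 and 3.52 with 4b. For genotype with vehicle, the 7 called Kcn probes were 4 when only the groups compared were fitted (162 of all probes called). They were also 4 without the 2 animals numbered in 3 digits (324 of all probes called). With 1 array left out they were 3 to 7, and 258 to 862 of all probes were called. For genotype with 4b, the 10 were 18 with array weights (6228 of all probes called). With 1 array left out they were 6 to 11, and 2067 to 4023 of all probes were called. The 6 and the 2067 came without replicate 2 of the Tg mice given 4b. The fit without the 6 arrays of high lymphocyte score leaves 1 Tg array given 4b, and its counts are given above. For genotype averaged, the 13 were 9 to 13 with 1 array left out. A count of 9 came without replicate 2 of the Tg mice given 4b, where 3443 of all probes were called. For 4b in Tg mice, the 0 were 4 with array weights (2277 of all probes called) and 0 to 2 with 1 array left out. The 2 came without replicate 3 of the Tg mice given 4b (469 of all probes called). For 4b in WT mice and the genotype by treatment difference the count stayed 0 under every alternative run. Median scaling moved the median of all probes by over 0.1 log2 units (to 0.12 with vehicle, 0.13 with 4b and 0.12 averaged) and called 3 higher and 6 lower with 4b, where the main setting gave 2 and 8. The causes were not tested. No paired analysis was possible because replicates were numbered by accession and no animal number occurs in more than 1 array. Near background, the detection limit sets what can be seen.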

Other observations

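Kcnk1 spread widely among Tg mice, and its levels were set beside detection of the Y-linked gene Eif2s3y, a comparison chosen after the values were seen and not tested. In Tg mice, Kcnk1 ranged from 7.10 to 11.03 log2 units on the 4 arrays with Eif2s3y detected and from 5.46 to 7.18 on the 3 arrays without. In WT mice it ranged from 4.94 to 5.35 on the 4 arrays with Eif2s3y detected and from 5.01 to 7.28 on the 5 arrays without. Eif2s3y was detected on 1 of 3 arrays of Tg mice given 4b, 2 of 5 of WT mice given 4b, 3 of 4 of Tg mice given vehicle and 2 of 4 of WT mice given vehicle.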
